A study of Mus musculus with 6 samples.

Results

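Meclizine, an antihistamine taken against motion sickness and vertigo, was compared with its vehicle control in mutant huntingtin cells by the promoter mark they carried. The comparison used the meclizine peak list against the Q111SST peak list, which are 2 of the 6 samples of the series. Each sample was a list of peaks of H3K4me3, histone H3 trimethylated at lysine 4, found by chromatin immunoprecipitation and sequencing (ChIP-seq). Both samples came from the STHdhQ111 line, conditionally immortalized mouse striatal progenitor cells (strain C57BL/6) that express huntingtin with an expanded polyglutamine tract from both alleles. Q111SST cells were held in serum-free medium with vehicle for 24 hours, and the treated cells were held in serum-free medium with 10 uM meclizine for 24 hours, so serum withdrawal and the mutation were common to both. The line stands for one cell culture model, and 1 list was deposited for each condition. The other lists were Q7SST, the wild-type cells (STHdh7) without compound, and mutant cells with 10 uM cyproheptadine, loxapine or diacylglycerol kinase inhibitor II (DKI). They are given side by side, and the compound lists share Q111SST as their control. The labels state triplicate treatment but not whether replicates were pooled, so the differences below have no replicate error and no test and are described by their size. The depth of each library is unknown, and fewer cells with the mark and less of the mark per cell cannot be told apart.

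H3K4me3 sits on the nucleosomes on both sides of active and poised transcript starts, where it is written by the SET1 and MLL enzymes and removed by KDM5 enzymes. A high and compact peak is usual at housekeeping promoters with many CpG dinucleotides, and the start itself lies in a stretch that is poor in nucleosomes. Meclizine blocks the histamine H1 receptor and muscarinic acetylcholine receptors. It is also known to lower mitochondrial respiration, to inhibit the phosphatidylethanolamine enzyme PCYT2 and to activate the constitutive androstane receptor (CAR) of the mouse, a nuclear receptor that switches on genes of drug metabolism and export.

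The Q111SST list held 40406 peaks with a median score of 43, and the meclizine list held 38577 peaks with a median score of 54. The score is the whole number that the authors' peak caller gave each peak, and its lowest value was 10 in both. Peaks with a score of 20 or less made up 19.6% of the Q111SST list and 11.6% of the meclizine list. Scores were therefore not compared directly. The strength of a promoter was taken as the percentile, within its own list, of the highest-scoring peak within 1 kb of a start of a protein-coding transcript. A change of 10 percentile points or more is called a rise or a fall below. Of 7 neural progenitor markers, 6 were marked in each list, among them Nes, Vim, Sox2 and Sox9. Of 11 striatal lineage markers, 5 were marked in each list: Dlx1, Dlx2, Meis2, Foxp1 and Ppp1r1b. Of the markers of mature striatal projection neurons, Ppp1r1b stood at percentile 25.9 in Q111SST and 29.0 with meclizine. Drd1, Drd2 and Bcl11b had no peak in either. None of the 4 blood markers or the 3 liver or 3 muscle markers was marked. Of the 4 fibroblast markers 3 were marked in both lists (Col1a1, Col1a2 and Pdgfra). Of 5 microglial markers 2 were marked in Q111SST and 1 with meclizine (Tmem119, at 78.3 and 58.3), of 4 oligodendrocyte markers 0 and 1, and of 4 astrocyte and 3 endothelial markers 1 in each list.

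Most of the landscape was common to both conditions. Of the Q111SST peaks, 34733 overlapped a meclizine peak, which is 86.0% (95% Wilson interval 85.6% to 86.3%). Of the meclizine peaks, 34667 overlapped a Q111SST peak, which is 89.9% (89.6% to 90.2%). These intervals cover counting error only. The peaks found in a single list of the pair were weak and narrow. The 3910 peaks found with meclizine and not in Q111SST stood at percentile 14.0 and spanned 330 bp in the median, while the meclizine peaks found in both stood at 54.9 and spanned 927 bp. The 5673 peaks of Q111SST that were not found with meclizine stood at 12.9 and spanned 399 bp in the median. Promoters held 7.85% of the meclizine peaks without a partner and 4.46% of the Q111SST peaks without a partner, against 35.9% and 36.2% of the peaks found in both. Of the 3910 meclizine peaks without a partner in Q111SST, 1191 (30.5%) were found in none of the other 4 lists, and 53.8% were found with loxapine. The shares were similar for the 5673 Q111SST peaks without a partner, with 1747 (30.8%) in none of the 4 and 55.8% with loxapine.

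Among the promoters of 21829 protein-coding genes, the Q111SST list marked 12567 and the meclizine list 12619, and 12398 were marked in both. Meclizine cells had 221 promoters with a peak where Q111SST had none, which is 1.01% of all protein-coding genes and 2.39% of those not marked in Q111SST, and they lacked a peak at 169 promoters, which is 1.34% of those marked in Q111SST. Counting only peaks over the start gave 511 gained and 297 lost promoters, and a minimum score of 48, the median of both lists pooled, gave 424 and 125. With a 5 kb window the order turned, with 263 gained and 275 lost. The gained promoters were weak, with a median percentile of 18.7 in the meclizine list, and the lost promoters had a median percentile of 12.9 in the Q111SST list. Of the gained promoters 121 and of the lost promoters 97 were marked in Q7SST, the wild-type control list, which are 54.8% and 57.4%. In the loxapine list, 100 of the gained promoters (45.2%) and 65 of the lost promoters (38.5%) were marked, in the longest of the lists (45564 peaks). With cyproheptadine 22 (9.95%) and 13 (7.69%) were marked, and with DKI 29 (13.1%) and 21 (12.4%).

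4 peaks led the gained group once those with a Q111SST peak within 2 kb were set aside. Evi2a and Evi2, overlapping genes in an intron of the neurofibromin gene, shared a meclizine peak of 416 bp at chr11:79530160-79530575 with a score of 115 and a percentile of 78.3. Neither Q111SST nor Q7SST had a peak at that start, while the cyproheptadine, loxapine and DKI lists had one with scores of 66, 103 and 74. Gm9833, an unnamed gene model on chromosome 3, had a peak of 205 bp with a score of 63 in the meclizine list and in no other of the 6. Naip6, a member of a family of near-identical inflammasome receptors in which reads are hard to place, had a score of 74 with meclizine, 36 in Q7SST, 32 with loxapine and 24 with cyproheptadine, and no peak in Q111SST or with DKI. Slc26a8, an anion transporter of the testis, had a score of 107 with meclizine, but its peak of 2572 bp was reached by joining with a neighbour that Q111SST also had 2077 bp from the start. When overlapping peaks of both lists were treated as 1 region, this gene changed by -6.16 points.

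The lost promoters with no meclizine peak within 2 kb began at lower strength. Sema3g, a secreted semaphorin of axon and vessel guidance, was at percentile 49.9 in Q111SST and was listed in none of the other 5. Rhox2f, one of a cluster of similar homeobox genes on the X chromosome, was at percentile 49.1 with a peak 994 bp from the start. Naprt, which makes nicotinic acid mononucleotide for the NAD pathway, was at percentile 44.1 in Q111SST, 47.4 in Q7SST and 30.9 with DKI, and had no peak with meclizine, cyproheptadine or loxapine. Cldn1, a tight junction protein, was at percentile 40.6 in Q111SST and 59.1 in Q7SST and had no peak in any compound list.

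Promoter strength fell more often than it rose when ranked within the whole list. Among the 12398 promoters marked in both lists, 504 (4.07%) rose by 10 points or more and 1244 (10.0%) fell by 10 points or more, and the median promoter changed by -1.55 points with quartiles of -5.62 and 1.31. The asymmetry narrowed when both lists were held to their 38577 best peaks, with 652 rises and 942 falls and a median change of -0.90. It remained with both lists held to 30758 peaks, with 775 rises and 1373 falls, and was wider with peaks over the start alone, with 345 rises and 956 falls. It was absent when promoters were ranked among promoters alone, with 1824 rises and 1798 falls, and when strength was taken as score times width, with 1261 rises and 1197 falls. Of the rises and falls, 488 and 942 kept their call with lists of equal size. The share of promoters that passed the step varied with their strength in Q111SST, on a scale that ends at 100 and so leaves strong promoters little room to rise. Below percentile 50 in Q111SST, 24.5% of promoters rose and 22.5% fell. Between 50 and 75, 6.25% rose and 16.2% fell, and at 75 or above, 0.772% rose and 6.33% fell. The counts of gene groups below are read beside these shares.

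**Figure D1:**
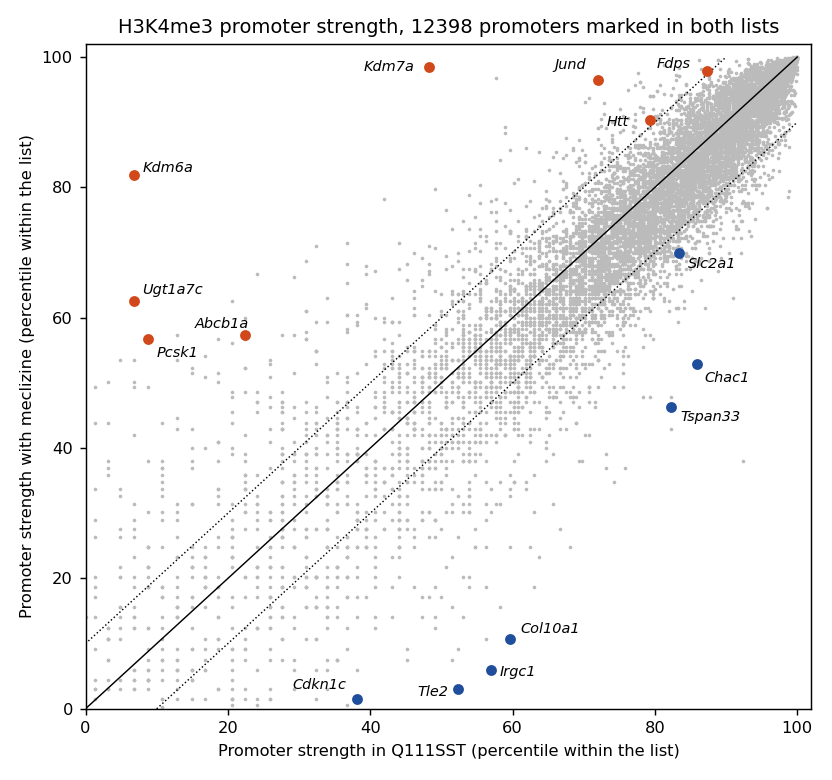
Promoter strength in Q111SST (x axis) and with meclizine (y axis), each as a percentile within its own list, for the 12398 promoters marked in both. The solid line marks equal strength, the dotted lines a change of 10 points, and coloured points are named promoters that rose (orange) or fell (blue). Points spread widely at low strength and lie close to the line above percentile 75, and Chac1 and Tspan33 stand below the band of strong promoters.

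The rises and falls named first are those whose strongest peaks overlapped between the lists and whose direction held with lists of equal size. Among the largest rises at promoters with 1 peak in each list were a locus of detoxification and a prohormone convertase. The start shared by Ugt1a6b and Ugt1a7c, which encode UDP-glucuronosyltransferases that couple drugs to glucuronic acid, moved from percentile 6.76 (score 14) in Q111SST to 62.6 (score 75) with meclizine, a rise of 55.8 points. The other lists lay between, at 39.2 with cyproheptadine, 41.7 with loxapine, 44.4 in Q7SST and 53.5 with DKI, so Q111SST was the low value here and meclizine the highest. Ccdc180 rose by 48.6 points from percentile 4.91, over a peak of 240 bp. Oxtr, the oxytocin receptor, rose by 48.1 points from percentile 1.27 to 49.4, but its Q111SST peak was not among the best 38577. Pcsk1, the prohormone convertase of neuropeptide processing, rose by 48.0 points from percentile 8.76 to 56.7, close to the 58.5 of Q7SST. Kdm6a and Kdm7a, demethylases of other histone H3 lysines, had nominal changes of 75.1 and 50.3 points. Both came from a weak Q111SST peak beside the start that was part of a joined peak with meclizine, and the regions changed by -2.79 and 0.20 points.

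Under the same limits the largest falls were at promoters of middling strength. Outside them, Cebpb, a transcription factor of the C/EBP family, fell by 54.4 points from percentile 92.4 to 38.1 between strongest peaks that did not overlap, and its region changed by -3.20 points. Irgc1, an interferon-inducible GTPase family member, fell by 51.0 points from percentile 56.9 to 5.91, and DKI (5.96) and Q7SST (6.14) were as low. Tle2, a corepressor of the Groucho family, fell by 49.2 points to percentile 3.04 and had no peak with cyproheptadine, loxapine or DKI. Col10a1, a collagen of hypertrophic cartilage, fell by 48.8 points, and the other lists ranged from no peak in Q7SST to percentile 81.1 with loxapine. Adgrb2, an adhesion receptor of the brain, fell by 45.5 points to percentile 10.8, below the other 5 lists, which ran from 18.5 to 56.2. Pdzrn3, a ubiquitin ligase of synapse formation, fell by 44.4 points to percentile 18.7, while loxapine was lower at 8.50. Ranked among promoters alone, these 5 falls were smaller, between -8.94 points (Tle2) and -14.4 points (Pdzrn3), and with score times width they lay between -6.16 points (Irgc1) and 0.20 points (Pdzrn3), so none passed the step there. The rises of Ugt1a7c, Pcsk1 and Ccdc180 were 18.7, 13.3 and 11.5 points among promoters alone and 9.44, 8.62 and 2.29 points with score times width.

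Among promoters at percentile 75 or above in Q111SST, the largest rises were those of Mgat4a, a glycosyltransferase of N-glycan branching, by 19.9 points to 97.5, Ch25h, the cholesterol 25-hydroxylase, by 18.7 points to 94.9, and Mrps26, a mitochondrial ribosomal protein, by 18.4 points to 95.7. Ranked among promoters alone, these rises were 56.5, 52.0 and 52.2 points, and with score times width Mgat4a turned to -13.6 points while Ch25h and Mrps26 were at 8.08 and 3.70. The meclizine peaks were narrower at all 3, at 0.33, 0.60 and 0.56 times the Q111SST width. Cyproheptadine, loxapine and DKI lists also had Mgat4a between 95.7 and 99.6, so Q111SST at 77.6 was the low list, whereas Ch25h was highest with meclizine and next highest with DKI at 87.9. The largest falls under the limits above were those of Aamdc (-39.4 points), Snx24 (-38.8 points to 37.0) and Tspan33 (82.3 to 46.3). Aamdc was a split peak, and its region changed by 10.0 points in the other direction. Snx24, a sorting nexin, was below the other 5 lists, which ran from 48.9 to 75.8. Tspan33, a tetraspanin, was lower still with DKI at 18.5. Ranked among promoters alone, Snx24 and Tspan33 changed by -28.8 and -40.4 points, and with score times width by 0.13 and -3.42 points.

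Drug metabolism and the receptors of meclizine were examined as 2 fixed lists. Of 23 genes of CAR and xenobiotic response, 13 were marked in both lists and 10 in neither. The genes without a peak included the receptors themselves, Nr1i3 (CAR) and Nr1i2 (PXR), and the classic CAR target Cyp2b10. Among the 13, 1 rose and 3 fell, and the list's median change was -4.35 points, against -1.55 for all promoters. With a 5 kb window the order turned, at -0.96 points against -1.44, and among promoters alone the list was at -1.11 points against -0.23. The riser was Abcb1a, which encodes P-glycoprotein, the efflux pump that keeps many drugs out of the brain. Its scores were 22 in Q111SST and 65 with meclizine, a rise of 34.9 points from percentile 22.4 to 57.3. The other lists lay at 6.14 in Q7SST, 12.3 with cyproheptadine, 26.6 with DKI and 34.5 with loxapine, so meclizine stood 22.8 points above the highest of them. A single peak of similar width was called in each list at this start, with 738 bp in Q111SST and 800 bp with meclizine. Its neighbour and paralog Abcb1b, already at percentile 90.5, was at 90.1 with meclizine. The 3 falls were Abcc4 (-10.5 points), Cyp1b1 (-11.4 points) and Gsta1 (-13.6 points), all from percentile 51.5 or lower. Of 12 genes of histamine and muscarinic signalling, Hrh1, the receptor that meclizine blocks, was marked in both at percentiles 84.0 and 81.2, Chrm2 gained a weak peak at percentile 5.91, and the other 10 had no peak.

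The sequence ahead of the Abcb1a start is given below because this promoter stood furthest above the other lists within the drug-response group. It covers the 250 bases before a GENCODE vM21 coding start at chr5:8659827-8660076 on the plus strand of GRCm38.p6, and capitals mark AGGTCA, the half-site letters of many nuclear receptors, on either strand. The stretch holds 2 of them, and 1.05% of all 54329 distinct coding starts hold as many in a window of this length. It has 7 CpG dinucleotides and 48.4% G and C, and 28.3% of these windows have less.
Abcb1a: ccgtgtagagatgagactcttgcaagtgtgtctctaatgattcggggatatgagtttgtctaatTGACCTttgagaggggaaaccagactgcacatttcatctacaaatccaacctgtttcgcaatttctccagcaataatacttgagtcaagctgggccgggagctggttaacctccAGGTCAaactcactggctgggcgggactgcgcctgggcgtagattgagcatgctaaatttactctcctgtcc

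All promoters were then ranked by how far meclizine stood from all other lists. The promoters marked in all 6 lists numbered 11621, with overlapping peaks of all lists taken as 1 region. Meclizine was at least 10 points above every other list at 29 of them (0.25%) and at least 10 points below at 28 (0.24%). The same counts were 82 and 19 for Q111SST, 43 and 309 for cyproheptadine, 133 and 32 for loxapine, 56 and 1289 for DKI and 308 and 321 for Q7SST, so meclizine had the fewest promoters outside the range. The genes in this paragraph were chosen after their values were seen. Rapgef4, a cAMP sensor, was at percentile 47.1 with meclizine and at 24.2 or lower elsewhere. Alox12, a lipoxygenase, was at 71.4 against at most 48.6, and Vash1, an enzyme that detyrosinates tubulin, was at 80.3 against at most 59.5. Ugt1a6a, another first exon of the Ugt1a cluster, was at 63.1 against at most 46.7. Morc4, a chromatin ATPase, was at 96.8 against at most 76.8. Dcxr, a carbonyl reductase, was at 88.6 against at most 77.6, and Vnn1, the pantetheinase, was at 86.2 against at most 74.3. At 25 of the 29 a single peak was called in every list.

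Huntingtin itself was among these 29. Htt was at percentile 79.4 (score 101) in Q111SST and 90.3 (score 161) with meclizine, a rise of 10.9 points over a peak that was 0.78 times as wide. The other lists had it at 74.5 in Q7SST, 69.7 with cyproheptadine, 79.0 with loxapine and 61.3 with DKI. Among 24 genes tied to Huntington disease, 20 were marked in both lists, 1 rose (Htt) and 1 fell (Creb1, by 11.0 points). The repeat-length modifiers Fan1 and Msh3 were at 97.8 and 89.7 with meclizine and changed by 2.59 and -2.37 points. Bdnf, the neurotrophin that striatal neurons depend on, changed by -2.55 points.

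**Figure D2:**
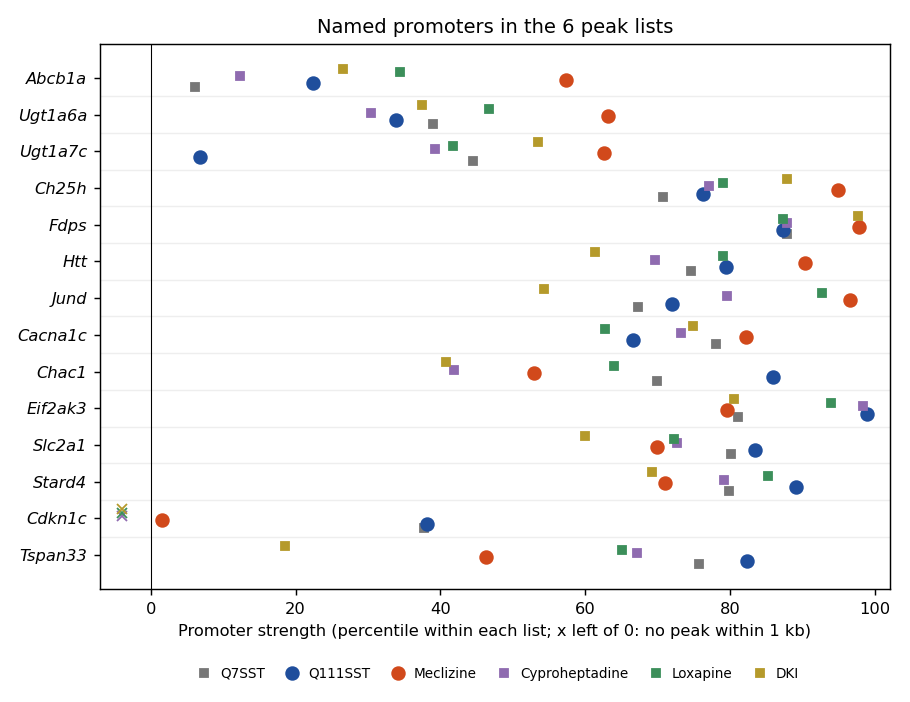
Strength of 14 named promoters (rows) in each of the 6 lists, as the percentile within the list on the x axis. Large circles are Q111SST (blue) and meclizine (orange), squares are the other 4 lists, and crosses left of 0 mark lists with no peak within 1 kb. Meclizine is the highest list at Abcb1a, Ugt1a6a, Ugt1a7c, Ch25h and Htt, while at Chac1, Slc2a1 and Stard4 it lies within the range of the other compounds and Q111SST is the highest list.

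Stress-response promoters had falls and no rise among those marked in both lists. The integrated stress response slows translation when a kinase such as PERK phosphorylates eIF2, and ATF4 then activates genes of amino acid supply and redox balance. Of 30 genes in this list, 28 were marked in both, 0 rose and 5 fell, which is 17.9% beside 10.0% of all promoters, and the median change was -3.48 points. Chac1, which degrades glutathione and is a target of ATF4, had scores of 123 in Q111SST and 58 with meclizine, a fall of 33.0 points from percentile 85.9 to 52.9. Q111SST was the high list at this gene, with 69.9 in Q7SST, 63.9 with loxapine, 41.8 with cyproheptadine and 40.8 with DKI. Eif2ak3, which encodes PERK, fell by 19.4 points from 98.9 to 79.5. Ppp1r15a, Atf5 and Hspa5, the phosphatase subunit GADD34, a sister factor of ATF4 and the ER chaperone BiP, fell by 11.4, 10.7 and 10.0 points. The members that did not pass included Atf4 (1.01 points), Trib3 (3.08 points), Asns (5.98 points) and Ddit3 (-9.41 points). Fgf21 and Gdf15, which encode stress hormones, were counted as gained at percentiles 41.0 and 51.6, and Gdf15 was marked nearby in Q111SST, where the merged region changed by 3.36 points.

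The sequences ahead of 3 of these starts follow because the largest fall, the joined peak and a gain of the group lie there. Each is read from GRCm38.p6 before a GENCODE vM21 coding start. In Chac1 (chr2:119350979-119351228, plus strand) capitals mark TGANGCAA, the composite element to which ATF4 binds with C/EBP partners, and CCAAT, both on either strand and without overlap. In Fgf21 (chr7:45615491-45615740, minus strand) they mark TGANGCAA. In Eif2ak3 (chr6:70844265-70844514, plus strand) they mark CCAAT. TGANGCAA occurred 2 times ahead of Chac1 and 1 time ahead of Fgf21, and 2.94% of coding starts hold it at least once and 0.105% at least 2 times in such a window. CCAAT occurred 3 times ahead of Chac1 and 6 times ahead of Eif2ak3, and 32.8% of coding starts hold it at least once.
Chac1: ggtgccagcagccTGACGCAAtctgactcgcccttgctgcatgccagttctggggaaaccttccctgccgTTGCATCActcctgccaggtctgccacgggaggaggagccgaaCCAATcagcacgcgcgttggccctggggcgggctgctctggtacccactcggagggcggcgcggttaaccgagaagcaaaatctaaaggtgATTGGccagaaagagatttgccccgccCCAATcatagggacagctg
Fgf21: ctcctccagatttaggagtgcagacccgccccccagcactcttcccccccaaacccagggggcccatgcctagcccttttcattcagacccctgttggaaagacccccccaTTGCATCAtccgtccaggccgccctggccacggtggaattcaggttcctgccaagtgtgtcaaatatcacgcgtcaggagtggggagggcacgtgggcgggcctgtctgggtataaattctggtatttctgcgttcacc
Eif2ak3: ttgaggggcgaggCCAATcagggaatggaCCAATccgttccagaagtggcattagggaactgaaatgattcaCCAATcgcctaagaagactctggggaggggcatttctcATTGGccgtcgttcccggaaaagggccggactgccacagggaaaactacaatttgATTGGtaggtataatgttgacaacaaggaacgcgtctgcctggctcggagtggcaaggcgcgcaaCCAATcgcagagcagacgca

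All 48 measured genes of respiratory complex I were marked in both lists, 0 rose and 3 fell. That is 6.25%, beside 10.0% of all promoters and 6.33% of those at percentile 75 or above in Q111SST. The median change was -1.52 points, beside -1.55 for all promoters. With ranking among promoters alone it was -2.31 points, beside -0.23. The 3 were Ndufab1, the acyl carrier protein (-15.5 points), Ndufs5 (-11.1 points) and Ndufc2 (-10.7 points). Of the genes of complexes II to V, 49 were marked in both, 0 rose, 3 fell (6.12%) and 1 more was lost. Among the 3 falls were the ATP synthase subunits Atp5e (-16.4 points) and Atp5o (-10.5 points). Of 33 genes of glycolysis and pyruvate entry, 1 rose (3.03%) and 4 fell (12.1%), beside 4.07% and 10.0% of all promoters. The falls were those of Pfkfb4, a regulator of glycolytic flux (-15.4 points), Eno2, the neuronal enolase (-14.2 points), Slc2a1, the glucose transporter GLUT1 (-13.5 points), and Pdhb, a subunit of pyruvate dehydrogenase (-10.4 points), and Aldoc rose by 16.1 points from percentile 8.76. The list's median of -0.65 points turned to 0.54 with lists of equal size. Among 23 genes of the hypoxia pathway marked in both, Vegfa rose by 10.5 points, and Slc2a1, Kdm3a and Car12 fell by 13.5, 11.3 and 14.3 points. Hif3a, an inhibitory member of the hypoxia factors, gained a peak of 218 bp at percentile 52.9 and was marked elsewhere only with loxapine, at 34.5. Egln3, a prolyl hydroxylase that marks hypoxia factors for degradation, lost its weak peak (percentile 12.9 in Q111SST and 38.9 in Q7SST).

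Few lipid genes passed the step of 10 points. Pcyt2, the enzyme that meclizine is known to inhibit, was at percentiles 95.7 and 97.2. Of 17 genes of phosphatidylethanolamine and phosphatidylcholine synthesis marked in both, 0 rose and 2 fell, which were Chka, a choline kinase (-14.1 points), and Chpt1, a cholinephosphotransferase (-13.1 points). The list's median was -4.15 points, with 7 of the 17 above the median of all promoters, and it was -3.69 points with ranking among promoters alone, where all promoters were at -0.23. Of 32 sterol genes marked in both, Fdps, which makes farnesyl diphosphate, rose by 10.5 points to 97.8 and was at 97.6 with DKI, and Stard4, a cholesterol carrier, fell by 18.1 points to 71.0.

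Groups of weakly marked developmental genes held high shares of falls. Of 24 Hox genes marked in both lists, 3 rose and 9 fell, of 24 collagens 1 rose and 8 fell, of 28 neural progenitor and striatal genes 2 rose and 9 fell, and of 40 genes of Wnt signalling 2 rose and 11 fell. The medians of these lists depended on the processing: that of the Hox genes turned from -4.49 to 1.52 points with a 5 kb window, and with ranking among promoters alone those of the neural and collagen genes went from -5.09 and -6.64 to -0.61 and -2.43 points and that of the Wnt genes to -0.15 points. Their median percentiles in Q111SST lay between 53.9 and 69.1, in the range in which falls were frequent overall. Among members under percentile 75, the falls numbered 7 of 18 Hox genes, 7 of 19 collagens, 8 of 24 neural genes and 10 of 27 Wnt genes, where 17.9% of all promoters under 75 fell and 11.0% rose. Examples with a single peak in each list were Hoxb13 (-30.9 points), Col6a3, a chain of collagen VI (-31.7 points), Lhx8, a factor of cholinergic striatal neurons (-24.4 points), and Dkk2, a secreted Wnt inhibitor (-27.1 points). The 8 rises in these groups were those of Hoxd4 (32.4 points, from percentile 1.27), Wnt5b (27.3 points, to 66.7), Fabp7, the fatty acid carrier of radial glia (22.1 points, to 61.5), Hoxc6 (21.3 points), Col27a1 (20.4 points), Dlx5 (13.1 points), Fzd1 (13.0 points) and Hoxa2 (10.3 points). Penk, the enkephalin precursor of striatal neurons, fell by 18.2 points to percentile 5.91. Of 50 axon guidance genes, 4 rose and 11 fell, among them Plxnd1 (17.5 points, to 98.9) and Plxna1 (-28.3 points, to 41.9), both plexins.

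Voltage-gated sodium and calcium channels and cytokine genes had more rises than falls, although the median of the channels turned from 0.91 to -0.21 points with a 5 kb window and that of the cytokine genes from -1.74 to 0.58 points when ranked among promoters alone. Of 14 sodium and calcium channel genes marked in both, 4 rose (28.6%) and 2 fell (14.3%), beside 4.07% and 10.0% of all promoters. Of the 14, 12 were under percentile 75 in Q111SST and held these 4 rises and 2 falls. Among all promoters under 75, 11.0% rose and 17.9% fell. Cacna1c, the L-type calcium channel of neurons and heart, rose by 15.5 points to 82.2 and was highest in the meclizine list, next to 78.0 in Q7SST. Cacna1g, Cacna1b and Scn1a rose by 12.4, 12.5 and 14.1 points, and Cacng7 and Cacnb2 fell by 37.7 and 10.4 points. Cacng7 had 2 peaks in Q111SST and 1 with meclizine. Potassium channels had 1 rise (4.55%) and 5 falls (22.7%) among 22, of which 18 were under percentile 75. Of 201 solute carriers, 14 rose and 14 fell (6.97% each), and 7 more were gained and 3 lost. Cytokine genes had 4 rises (12.9%) and 2 falls (6.45%) among 31. The rises included Cxcl1 (80.3 to 90.9) and Il18 (83.4 to 97.1), and the larger fall was that of Il11 (-23.7 points).

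**Figure D3:**
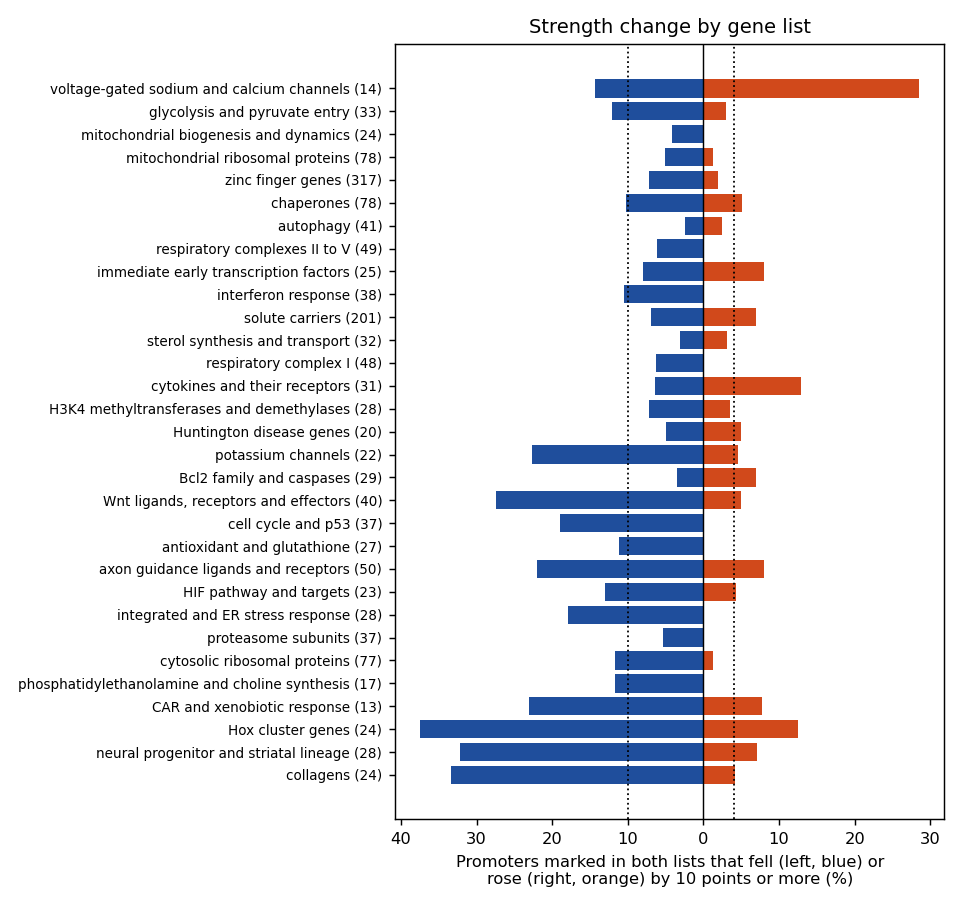
Share of promoters that fell (blue, left) or rose (orange, right) by 10 points or more with meclizine, for gene lists with at least 10 promoters marked in both lists (number in brackets), ordered by median change. Dotted lines mark the shares over all 12398 promoters, 10.0% and 4.07%. Hox genes and collagens have the longest blue bars, and voltage-gated sodium and calcium channels the longest orange bar.

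The promoters of the ribosome and the proteasome had medians below that of all promoters. Of 77 genes of the cytosolic ribosome marked in both, 1 rose and 9 fell, and the median change was -3.99 points, with 24 of the 77 above the median of all promoters. Of 37 proteasome subunits, 0 rose and 2 fell, the median change was -3.64 points and 12 of the 37 were above the median of all promoters. When strength was ranked only among promoters marked in both lists, where the median of all promoters was -0.23 points, these medians were -4.92 and -5.95. The 78 genes of the mitochondrial ribosome had a median change of -0.74 points, with 46 above the median of all. Cell cycle and p53 genes had 0 rises and 7 falls among 37, which is 18.9% beside 10.0% of all promoters. Of the 15 members under percentile 75 in Q111SST, 4 fell, where 17.9% of all promoters under 75 fell. The largest fall was that of Cdkn1c, the inhibitor p57, by 36.6 points to percentile 1.57. Cdkn2a fell by 15.5 points, and the cyclin genes Ccne2 and Ccna2 changed by -18.1 and -12.1 points. Ccne2 had 2 peaks in Q111SST and 1 with meclizine.

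Promoter peaks were narrower with meclizine than in Q111SST, while more starts lay under a peak. Over all peaks, Q111SST had the largest median width of the 6 lists, at 922 bp. This width was 889 bp in Q7SST, 844 bp with meclizine, 792 bp with loxapine, 785 bp with DKI and 766 bp with cyproheptadine. Strongest peaks overlapped between the lists at 12228 promoters, and their median width was 1820 bp in Q111SST and 1702 bp with meclizine. The meclizine peak was the narrower one at 9166 and the wider one at 3041, and the median ratio was 0.94. At 431 promoters (3.52%) the meclizine peak was at least 1.5 times as wide, and at 482 (3.94%) it was at least 1.5 times narrower. These counts were 150 and 292 when only peaks over the start were used, and 271 and 463 with regions merged over both lists. Averaged over the 36275 coding starts of promoters marked in both lists, 44.5% of starts were covered 1000 bp inside the gene with meclizine and 50.5% in Q111SST. At the start itself the order was reversed, with 67.9% and 66.6%. These starts were chosen for a peak nearby in Q111SST and meclizine, so the coverage in the other 4 lists (57.4% to 66.0%) is not comparable.

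**Figure D4:**
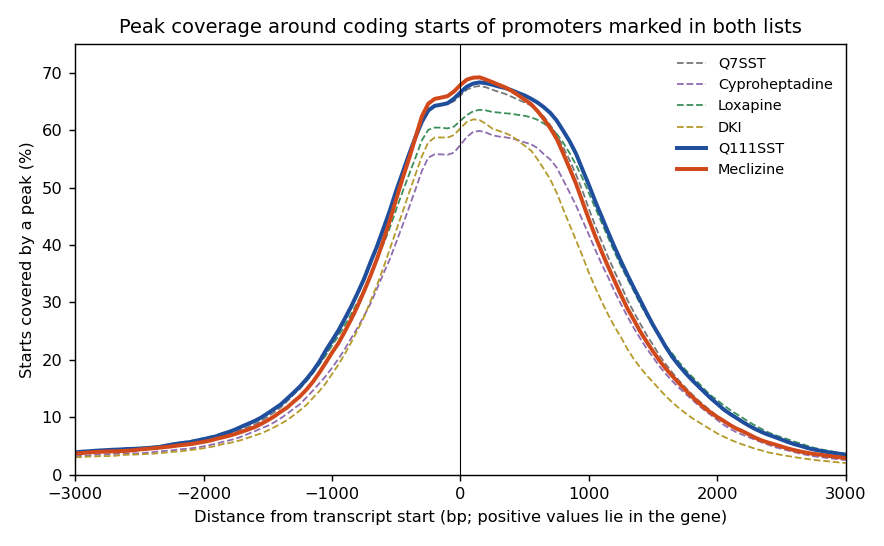
Share of 36275 coding starts of promoters marked in both lists that lie under a peak (y axis, %), by distance from the start in bp (x axis). Thick lines are Q111SST (blue) and meclizine (orange) and dashed lines the other 4 lists. The starts were chosen for a peak nearby in Q111SST and meclizine, which favours these 2 lists over the other 4. The meclizine curve lies above Q111SST at the start (67.9% and 66.6%) and below Q111SST at 1000 bp inside the gene.

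Neighbouring peaks were joined across the start at many promoters. Of the 431 widened promoters, 201 had 1 peak in each list. A single meclizine peak spanned 2 or more Q111SST peaks 283 times and closed 285 gaps with a median length of 873 bp, and 204 of these gaps (71.6%) held a coding start. In the opposite direction, 219 Q111SST peaks spanned gaps in the meclizine list, and 55 of the 219 gaps (25.1%) held a coding start. Meclizine was the one list of the 5 that closed more gaps of Q111SST than it opened. The counts of gaps closed and opened were 188 and 239 for Q7SST, 130 and 592 for loxapine, 78 and 584 for DKI and 41 and 656 for cyproheptadine. Among promoters marked in all 6 lists, 96 had fewer peaks with meclizine than in every other list, against 103 in Q7SST, 40 with cyproheptadine, 38 with DKI, 27 in Q111SST and 6 with loxapine. Slmap, a membrane protein of the STRIPAK complex, had a meclizine peak of 3750 bp over a Q111SST peak of 258 bp and its neighbours, and its region was 1.34 times as wide. Cdon, a coreceptor of hedgehog signalling, had 2724 bp against 336 bp, and the start between Mylpf and Tbc1d10b had 3015 bp against 426 bp. Eif2ak3 was of this kind, with 3272 bp against 492 bp at a region that was 1.13 times as wide.

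Strength also differed with the number of peaks called in a region. At the 332 promoters with fewer peaks in the meclizine list than in Q111SST, the region changed by a median of -6.14 points, and 99 (29.8%) fell and 3 (0.904%) rose by 10 points or more. At the 205 with more peaks in the meclizine list the median change was 1.74 points, with 29 rises (14.1%) and 18 falls (8.78%). At the 10717 with 1 peak in each list it was -1.56 points, with 438 rises (4.09%) and 1049 falls (9.79%). The promoters with fewer peaks in the meclizine list had a median of 68.8% G and C in the 250 bases before the start and 24 CpG dinucleotides, against 61.2% and 17 for promoters with 1 peak in each list. Those with more peaks in the meclizine list were between, at 66.4% and 20. Of the 28 promoters at which meclizine was below all other lists, 13 had fewer meclizine peaks than Q111SST peaks. They included Cnot6 and Cnot2, subunits of the deadenylase complex, Eif5 and Eif4g1, translation initiation factors, and Ubqln2, a ubiquilin mutated in motor neuron disease, all chosen after their values were seen. At Cnot6 all other lists were between percentile 96.0 and 99.4 with 2 peaks, and meclizine was at 78.6 with 1.

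**Figure D5:**
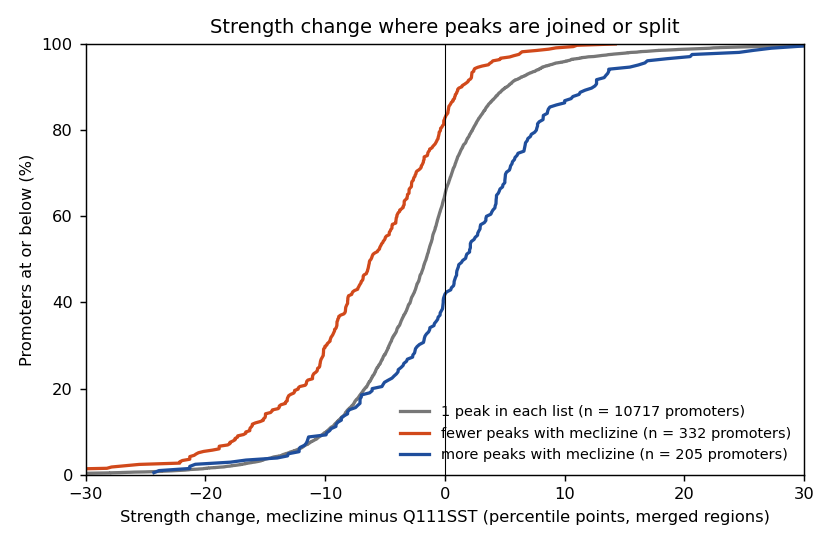
Cumulative share of promoters (y axis, %) by strength change in percentile points (x axis, meclizine minus Q111SST), with overlapping peaks of both lists merged into regions. Lines show promoters with 1 peak in each list (grey, n = 10717), fewer peaks with meclizine (orange, n = 332) and more peaks with meclizine (blue, n = 205). The orange line lies to the left, with a median of -6.14 points, and the blue line to the right, with a median of 1.74 points.

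Narrowed peaks had the reverse relation to strength. Of the 482 promoters with narrower peaks, 127 (26.3%) rose and 53 (11.0%) fell, and of the 431 with wider peaks, 36 (8.35%) rose and 156 (36.2%) fell. Jund, a subunit of the AP-1 transcription factor, had a peak of 333 bp with meclizine against 3018 bp in Q111SST and rose by 24.6 points to percentile 96.5, and the meclizine peaks of its region together covered 0.58 times the Q111SST length. With score times width Jund turned to -22.6 points. The Jund peak was 269 bp with loxapine, 1024 bp with cyproheptadine, 2682 bp with DKI and 2974 bp in Q7SST. Dhx58, the RNA sensor LGP2, had 251 bp against 2221 bp and a change of 5.06 points. Its peak was 216 bp with cyproheptadine, 219 bp with DKI and 624 bp with loxapine, and Q7SST had none. Prkch, a protein kinase C, had 203 bp against 1253 bp and remained weak at percentile 17.1, and Spns2, the sphingosine 1-phosphate exporter, had 381 bp against 2459 bp and fell by 24.3 points. Among the histone H3K4 enzymes, Setd1a had 924 bp against 2266 bp and Kdm5b 392 bp against 2306 bp, with changes of -2.12 and 0.02 points. Of the 28 genes in that list, 1 rose and 2 fell (7.14%, beside 10.0% of all promoters). The rise was the nominal change of Kdm6a, the joined peak named above. Kdm1a and Kdm2b, which remove methyl groups from histone H3, fell by 10.2 and 10.1 points.

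Base composition differed between rising and falling promoters. The median share of G and C before the start was 58.8% at the 504 rises and 64.0% at the 1244 falls, against 62.0% over all promoters marked in both. Among promoters under percentile 75 the values were 58.4% and 63.2%, against 62.8%. Of the rises, 52.2% had a CpG content of at least 0.6 times that given by their C and G counts, against 67.8% of the falls and 73.6% of all. Under percentile 75 these shares were 50.6%, 59.6% and 63.9%, and at 75 or above they were 63.1%, 78.6% and 78.2%. Whether base composition has a part in the changes was not tested.

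Away from promoters, the strongest peaks in a single list of the pair were modest. With no peak of the other list within 2 kb and no coding start within 5 kb, the highest with meclizine was an intergenic peak of 257 bp at chr2:30554013-30554269, 40771 bp from the nearest coding start (Cstad), with a score of 122 and a percentile of 80.3. Q7SST had it with a score of 49. The next, at chr1:172409248-172409712 and intergenic, had a score of 120 with meclizine and 139 with DKI, and 52, 33 and 34 in Q7SST, cyproheptadine and loxapine. In Q111SST the highest was an intergenic peak of 522 bp on chromosome 18 with a score of 84, and the next was at chr4:28176788-28177145 with a score of 75. The last 2 were also listed with cyproheptadine, loxapine and DKI, at scores of 32 to 202, and were not in Q7SST.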

How the data were processed

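H3K4me3 ChIP-seq of MNase-cut chromatin was analysed as 1 deposited peak list per sample, on mm10. Per the labels' processing notes, the authors used Trimmomatic 0.36, Bowtie2, SAMtools 1.3 and MACS2, and the peak caller's settings are not given in the sources used here. The measurement was the deposited score in column 5, a whole number of at least 10, and how the authors scaled it is not stated. Read depth was not recoverable from these lists.

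Scores were converted to percentiles within each list (average rank for ties). Promoters were assigned any peak within 1 kb of a coding transcript start of GENCODE vM21 (54355 starts of 21829 genes). Peaks shared between lists overlapped by at least 1 bp. Calls were set at 10 percentile points and at a width ratio of 1.5. Alternatives were lists of equal size (38577 or 30758 peaks), windows of 5 kb or over the start, merging of peaks within 1 kb, a score minimum, 50% reciprocal overlap and other rankings. Merging over both lists and the use of every transcript's start were added after seeing the data. Named genes were the 4 strongest gained and 4 strongest lost peaks with no peak of the other list within 2 kb, the 5 largest rises and falls and the 3 largest among promoters at percentile 75 or above, both limited to strongest peaks that overlapped between the lists and to changes of the same sign with equal lists, the 4 widest and 4 narrowest ratios that kept their direction with peaks within 1 kb merged, members of the gene lists that passed a call or had the largest change, and the 2 highest distal peaks of each list. Others are named as background to those or as chosen after their values were seen. The comparison, the gene lists and the markers were chosen with earlier results of these data known. Scripts used Python 3.11.15, NumPy 2.4.6, pandas 2.3.3 and matplotlib 3.10.9, and were tested on simulated data. Upstream sequences of 250 bases were read from GRCm38.p6.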

Additional observations from a re-analysis of the deposited data

How the results depend on the processing

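Of 58 recomputed summary values, 40 stayed close to those reported and 18 moved. With only peaks over the start counted, 511 promoters were gained and 297 lost, and 150 peaks were wider and 292 narrower. With a 5 kb window 275 promoters were lost, against 263 gained, so the order of the counts turned. Gains numbered 424, and losses 125, where only peaks with a score at or above the pooled median of 48 were used. Rises and falls numbered 775 and 1373 with lists held to 30758 peaks, 1824 and 1798 with percentiles among promoters, and 1261 and 1197 with score times width. With regions merged over both lists, an alternative chosen after seeing the data, 271 peaks were wider and 463 narrower. The share of Q111SST peaks found with meclizine was 74.7% at 50% reciprocal overlap, 99.7% above the pooled median score, and 88.4% and 88.0% with lists of 38577 and 30758 peaks, and that of meclizine peaks found in Q111SST was 78.2%, 99.0%, 88.2% and 87.6%. The list of drug-response genes had a median of -0.96 points with a 5 kb window, against -1.44 for all promoters, and the Hox list turned to 1.52. Medians also turned sign when ranked among promoters for sterol genes (1.73), glycolysis (1.71), the interferon response (1.03), chaperones (0.97), solute carriers (0.79), immediate early factors (0.69), cytokines (0.58) and complexes II to V (0.19). The causes were not tested. No paired analysis was possible because there is 1 list per condition, and no replicate could be left out.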
